A study of Mus musculus with 13 samples.

Results

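The genes described here encode the protein arginine methyltransferases of the mouse oocyte. They are Prmt1, Prmt2, Prmt3, Carm1, Prmt5, Prmt6, Prmt7 and Prmt9, together with Wdr77, the obligate partner of PRMT5. They were chosen by symbol, 9 genes of the 18939 in the count tables, and all 9 were also listed among the 49686 genes of the FPKM table. The libraries came from 13 single oocytes of C57BL/6 females aged 3 to 4 weeks, collected 48 h after PMSG, a hormone that drives follicle growth. Every oocyte had been injected with mRNA encoding FBL-GFP, mouse fibrillarin fused to a fluorescent protein, and held for 6 h in Cilostamide, which blocks meiotic resumption. For imaging, the study also co-injected H2B-mCherry mRNA, and its text does not say whether the sequenced oocytes received it. Oocytes were sorted while alive by their nucleolar FBL-GFP pattern into SN oocytes (surrounded nucleolus, with condensed chromatin around it) and NSN oocytes (non-surrounded nucleolus). There were 3 SN GV and 3 NSN GV oocytes, lysed at the germinal vesicle stage, and 4 SN-MII and 3 NSN-MII oocytes, matured in vitro to metaphase II after release. Only the MII oocytes had the culture that followed release. In the study NSN oocytes matured at a lower rate than SN oocytes, so MII groups hold only the oocytes that matured. No uninjected oocyte was sequenced, so the injection and the Cilostamide block were common to all groups.

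Protein arginine methyltransferases move methyl groups from S-adenosylmethionine to the guanidino nitrogens of arginine in histones, splicing factors and other RNA-binding proteins. Type I enzymes leave asymmetric dimethylarginine, type II enzymes leave symmetric dimethylarginine, and the type III enzyme PRMT7 stops at monomethylarginine. In the female germ line PRMT5 is needed for germ cell survival, and CARM1 is known for its role in early embryo lineage choice. In the imaging of this study, SN GV oocytes showed almost no new RNA synthesis, whereas NSN GV oocytes were active in transcription. Where transcription is silent, the mRNA pool is shaped by storage, polyadenylation and decay.

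Total counts per library ranged from 7140416 to 8846287, with 11593 to 13342 genes detected. The third NSN-MII library stood apart, with the fewest genes detected and 12.1% of its counts in its 10 most abundant genes, so results that rest on it are given with and without it. The 9 oocyte markers summed to between 16623 and 25209 CPM (counts scaled to the TMM-adjusted library size) in every library. Of 10 cumulus and granulosa cell markers, Foxl2 was at 0 in all libraries and Amh had at most 3 counts, while Cyp19a1 had 320 to 934 counts. Their summed level was 60.4 to 89.9 CPM in GV and 99.0 to 187 CPM in MII libraries. Cyp19a1 made up most of this sum, with 37.8 to 67.2 CPM in GV and 77.0 to 158 CPM in MII libraries. The sum was higher in every MII than in every GV library, and its part in the stage results was not tested. Within the marker lists, 5 oocyte markers fell by stage, led by Figla (log2 fold change -4.25) and Zp3 (-3.84), 3 rose, led by Gdf9 (0.83) and Oosp1 (0.63), and 1 did not pass. Of 4 tested cumulus and granulosa markers, Kitl (1.26) and Cyp19a1 (1.04) rose, while Nr5a2 (-0.53) and Star (1.73) did not pass. Fshr, which was not tested, had 0 to 19 counts in GV and 0 in all 7 MII libraries. The GV and MII libraries came in separate tables with no batch labels, so batch and stage cannot be told apart. All levels are shares of one oocyte's cDNA, so a change in a gene's share and a change in the total RNA of the oocyte cannot be told apart. Nothing states that the oocytes of a group came from different animals, so the p-values measure the spread between oocytes.

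On the length-normalised FPKM scale, Prmt2 was the most abundant of the 9 genes at both stages. It averaged 55.9 ± 5.31 FPKM (SD, n = 6) in GV and 73.2 ± 13.4 FPKM (SD, n = 7) in MII oocytes, and its range did not overlap that of the next gene at either stage. Prmt7 was second in GV oocytes at 25.9 ± 8.86 FPKM, above Prmt5 at 7.67 ± 2.37 FPKM with no overlap. In MII oocytes Prmt7 came after Prmt5 and Prmt3, at 2.51 ± 1.81 FPKM against 12.4 ± 3.56 for Prmt5 and 8.42 ± 5.05 FPKM for Prmt3. Prmt7 held 16.5% to 34.6% of the summed FPKM of the 9 genes in GV oocytes and 0.987% to 5.36% in MII oocytes, while the share of Prmt2 went from 40.7% to 63.7% up to 65.7% to 79.1%. Below the abundant genes the order was less firm. In GV oocytes the ranges of Prmt5, Prmt3, Prmt1 and Carm1 overlapped from neighbour to neighbour, as did those of Prmt9, Wdr77 and Prmt6, whose means were all under 1 FPKM. In MII oocytes every pair of neighbours from Prmt5 downward overlapped.

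**Figure D1:**
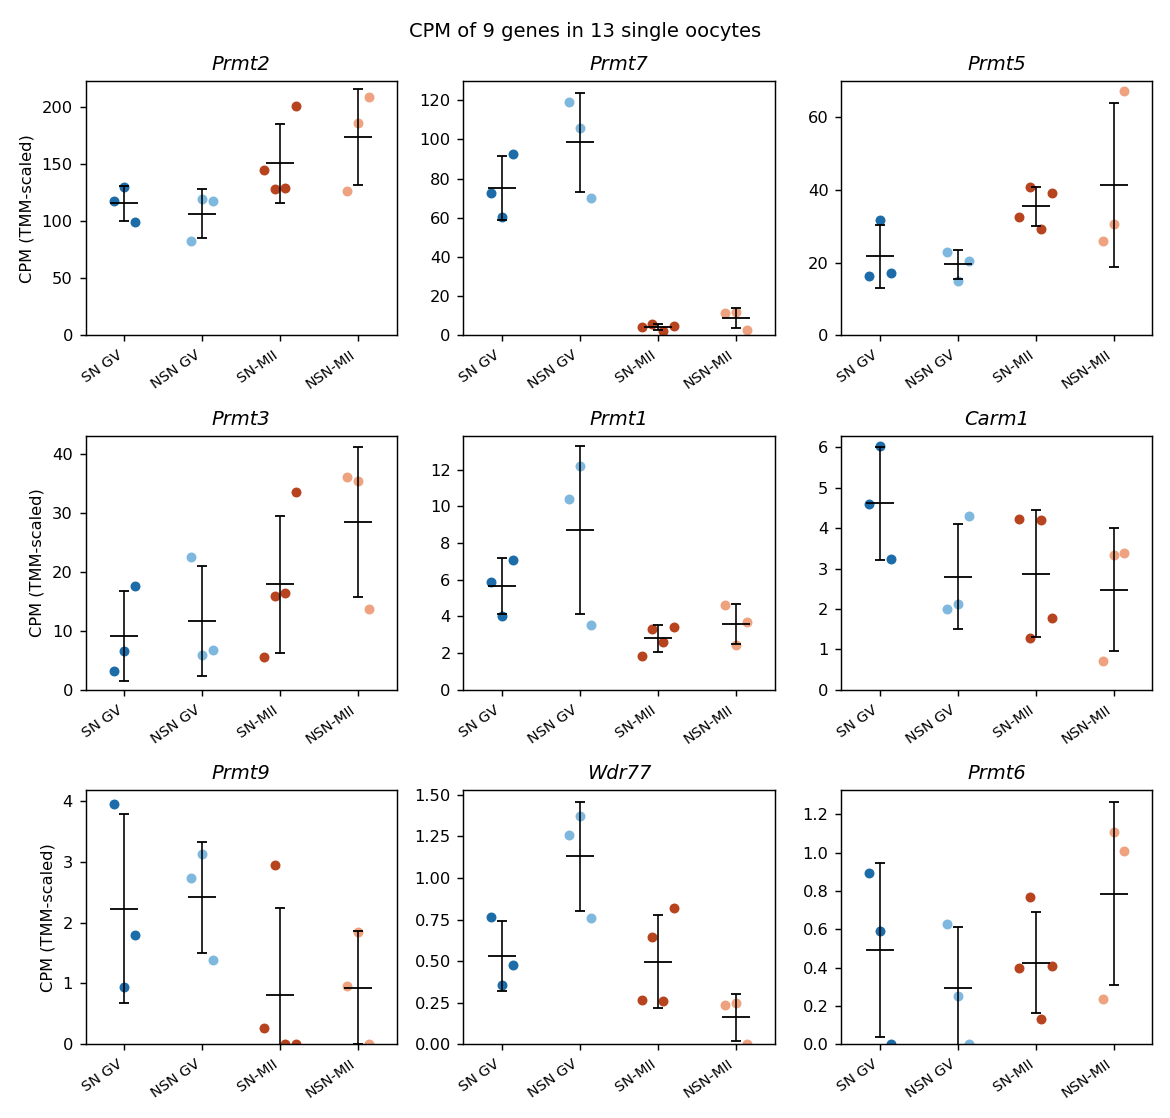
TMM-scaled CPM (y axes, each from 0) of the 9 genes in each of the 13 oocytes, by group (x axes). Points are single oocytes, the dash is the group mean and bars are 1 SD, cut at 0 where they would go below it. Prmt7 fell from 60.4 to 119 CPM in GV to 2.36 to 12.0 CPM in MII oocytes, and the MII range of each other gene overlapped its GV range.

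SMART-seq2 libraries are primed on the poly(A) tail, so the annotated 3′ ends are shown here for the members whose window could be scored, other than the barely detected Prmt6, with the PRMT5 partner Wdr77 among them. Each line is 30 bases of the principal GENCODE M21 transcript on GRCm38 (mm10), 5′ to 3′ on the gene's strand, with the motif in capitals. Motifs were looked for on the sense strand in the last 150 bases of transcripts whose 3′ UTR was at least that long: the poly(A) signals AATAAA and ATTAAA, and the cytoplasmic polyadenylation elements TTTTAT and TTTTAAT. An element and a signal may share bases, and each was counted by itself.
Prmt2, chr10:76207232-76207261, minus strand: tagtacatgctcAATAAAtattttttaacg
Prmt3, chr7:49858221-49858250, plus strand: tgaaaaatatccAATAAAtatgcaactatt
Prmt5, chr14:54507199-54507228, minus strand: ctgaaggaaacaAATAAAgtgaagttacgg
Carm1, chr9:21589429-21589458, plus strand: ctttgcatagaaAATAAAagtgtttgcttt
Prmt7, chr8:106252765-106252794, plus strand: cagaaaaaaaatacagaaATTAAAaaagtt
Wdr77, poly(A) signal, chr3:105969713-105969742, plus strand: ttgcttattgctAATAAAgataatgttggg
Wdr77, cytoplasmic polyadenylation element, chr3:105969611-105969640, plus strand: gacatTTTTAATgtctgtgtattgtgaagg
The signal of Prmt2 began 28 bases, that of Prmt3 33 bases and that of Prmt5 30 bases from the end of the transcript. Prmt7, alone among these genes, had the variant signal ATTAAA, which began 12 bases from its annotated end. Of the 10187 genes tested by stage that had such a window, 83.1% held a poly(A) signal and 26.1% held a cytoplasmic polyadenylation element. Wdr77 was the only gene of the 9 with an element match, 145 bases from the end, and the 3′ UTRs of Prmt1 (142 bases) and Prmt9 (89 bases) were too short to be scored. These matches are letters in a window and carry no information on use of the site.

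To ask how the measured mRNA levels changed during maturation, the 7 MII oocytes were compared with the 6 GV oocytes. Since priming was on the poly(A) tail, a change in tail length and a change in mRNA amount cannot be told apart. Prmt7 fell, and Prmt1 fell by a smaller amount, while Prmt5, Prmt2 and Prmt3 rose. In edgeR (quasi-likelihood test, p-values adjusted over all genes by Benjamini-Hochberg), 5 of the 7 members that passed the filter on low counts had an adjusted p under 0.05, against 68.5% of the 11375 genes tested. Of all genes tested 31.7% rose and 36.8% fell (3603 and 4185 genes), and with library totals in place of TMM 2735 rose and 4720 fell. Of the 7 members, 3 rose and 2 fell. The filter removed Prmt6 and Wdr77. Thus the members changed about as often as genes in general. The median log2 fold change was -0.43 over the 7 members and -0.10 over all genes tested, and library totals in place of TMM moved the latter to -0.39. Only for Prmt7 were the CPM ranges of the stages apart, against 47.4% of all genes tested.

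PRMT7 is the only known type III enzyme of the family, and its gene lies at chr8:106210936-106252794 on the plus strand. Prmt7 had 72.5, 60.4 and 92.7 CPM in the SN GV oocytes and 119, 106 and 70.3 CPM in the NSN GV oocytes. In the SN-MII oocytes it had 4.38, 5.65, 2.36 and 4.63 CPM, and in the NSN-MII oocytes 11.4, 12.0 and 2.87 CPM. Every MII oocyte lay below every GV oocyte, and the first and second NSN-MII oocytes were the highest of the MII libraries. The fall was 14-fold, a log2 fold change of -3.80 ± 0.30 (SE) with an adjusted p of 1.22e-08 in edgeR. It ranked 730th from the lowest log2 fold change among the 11375 genes tested. On FPKM the ratio of the stage means was smaller, at 10.3-fold. Leaving out single libraries gave log2 fold changes from -3.95 to -3.63.

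Counts and FPKM differ in the transcript length that the deposited values imply, and this length was compared between the stages. A gene's expected count divided by its FPKM is proportional to the length RSEM assigned to it in that library. This quotient was scaled here by 186 genes that have 1 annotated transcript each. Each of them had more counts in every library than Prmt7 had in any MII library. In these genes the ratio of implied to annotated length had a 5th percentile of 0.88 to 0.887 and a 95th of 1.05 over the libraries. With 1 transcript each, their length cannot shift between transcripts, so this ratio does not give the precision of the Prmt7 lengths. Implied length as a measure was chosen after the values were seen. For Prmt7 the implied length was 3348, 3520 and 3378 bases in SN GV and 3298, 3361 and 3374 bases in NSN GV oocytes, near the 3472 bases of the longest of its 7 annotated transcripts. It was 2245, 2746, 2632 and 2104 bases in SN-MII and 2141, 2317 and 1948 bases in NSN-MII oocytes. All MII values lay below all GV values, a difference of -1075 bases between the means. The exact two-sided permutation test gave p = 0.00117, the smallest p that 6 against 7 libraries allow, and 0.00583 after Benjamini-Hochberg adjustment over the 5 members with at least 10 counts in all libraries. Of the 7269 genes with several transcripts and such counts, 8.38% had implied lengths that did not overlap between the stages.
The counts behind the Prmt7 values were 511 to 1133 in GV and 17 to 97 in MII oocytes, and the part of this depth in the shorter length was not tested. With only libraries of at least 30 counts, the difference was -1069 bases (exact permutation p = 0.00433, again the smallest that the libraries kept allow). The MII libraries kept had 33 to 97 counts, still below every GV library, so depth and stage cannot be told apart here. The implied length of Prmt5 stayed within 2675 to 2682 bases in all libraries, near its longest transcript of 2691 bases, and those of Prmt2 (1899 to 1964 bases) and Prmt3 (2308 to 2493 bases) also varied little. Prmt1 spanned 1500 to 2097 bases in GV and 1196 to 2101 bases in MII oocytes, and its 3 NSN-MII values of 1252, 1196 and 1376 bases were among the 4 lowest (exact permutation p = 0.0793 for MII against GV, 0.132 after adjustment).

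**Figure D2:**
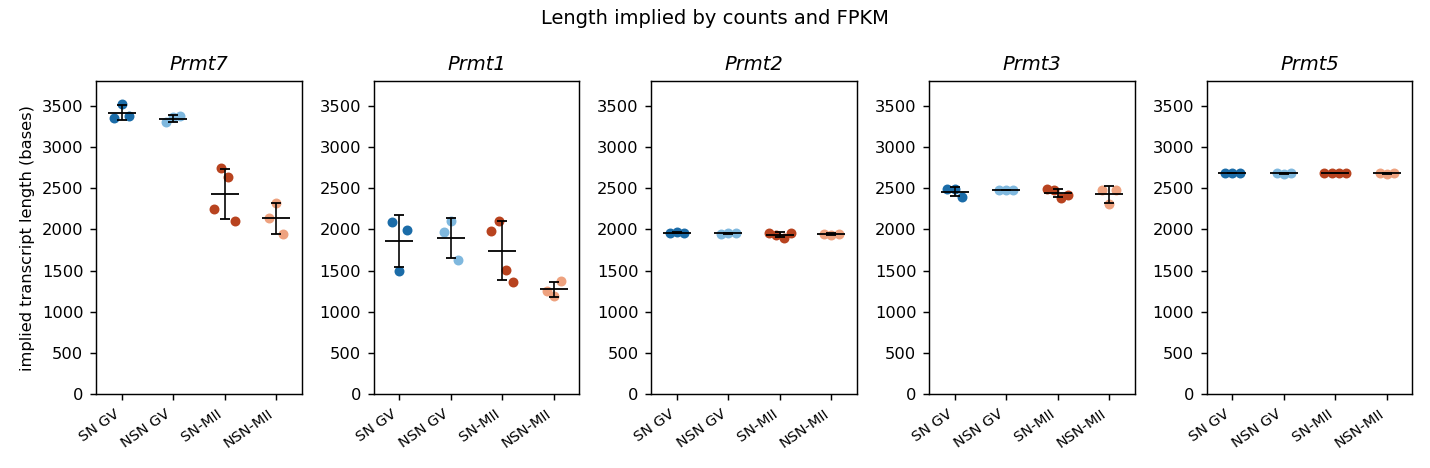
Transcript length in bases (y axes, from 0) implied by the ratio of expected count to FPKM, for the 5 members with at least 10 counts in every library. Points are single oocytes, dashes are group means and bars are 1 SD; Prmt7 lay at 3298 to 3520 bases in GV and at 1948 to 2746 bases in MII oocytes, while Prmt5 stayed within 2675 to 2682 bases.

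Among the type I genes, Prmt1 encodes the enzyme that makes most of the asymmetric dimethylarginine in mammalian cells. Prmt1 had 5.86, 4.02 and 7.06 CPM in SN GV, 10.4, 12.2 and 3.54 CPM in NSN GV, 1.86, 3.34, 2.63 and 3.41 CPM in SN-MII, and 4.64, 2.47 and 3.71 CPM in NSN-MII oocytes. The lowest GV value, in the third NSN oocyte, and that of the second SN GV oocyte lay within the MII range. The fall was 2.20-fold (log2 fold change -1.14 ± 0.36 SE, edgeR adjusted p = 0.0102). It remained past the threshold without any one library, at -1.32 to -0.98.

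Prmt2, whose product has weak methyltransferase activity and binds nuclear receptors, had 118, 130 and 99.6 CPM in SN GV and 82.4, 120 and 118 CPM in NSN GV oocytes. It had 145, 128, 129 and 201 CPM in SN-MII and 127, 186 and 209 CPM in NSN-MII oocytes. Most MII values lay above the GV values, and the stages overlapped between 127 and 130 CPM. The rise was 1.45-fold (log2 fold change 0.54 ± 0.17 SE, edgeR adjusted p = 0.00908). With library totals in place of TMM it was 0.24 on the log2 scale and did not pass (edgeR adjusted p = 0.126).

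Prmt3 encodes a cytosolic enzyme that methylates the ribosomal protein RPS2. Prmt3 varied widely within groups, with 3.19, 6.62 and 17.7 CPM in SN GV, 22.5, 5.86 and 6.70 CPM in NSN GV, 5.57, 16, 16.4 and 33.7 CPM in SN-MII, and 36.2, 35.5 and 13.8 CPM in NSN-MII oocytes. The third SN GV and first NSN GV oocytes were high for their stage, and the first SN-MII oocyte was low. The mean rise was 2.18-fold (log2 fold change 1.12 ± 0.47 SE, edgeR adjusted p = 0.0411). This call did not hold in 9 of the 13 fits that left out 1 library, whose log2 fold changes ranged from 0.88 to 1.57 with adjusted p-values from 0.00855 to 0.111. It was also lost with library totals (0.78, edgeR adjusted p = 0.188), without the filter (edgeR adjusted p = 0.0909) and in limma on FPKM (adjusted p = 0.0826).

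Carm1, the coactivator-associated enzyme that methylates histone H3, was a low gene with 4.59, 6.03 and 3.23 CPM in SN GV and 1.99, 2.12 and 4.30 CPM in NSN GV oocytes. It had 4.24, 1.28, 4.2 and 1.77 CPM in SN-MII and 0.714, 3.34 and 3.38 CPM in NSN-MII oocytes. The stages overlapped over most of their range. The log2 fold change of -0.43 ± 0.47 (SE) did not pass (edgeR adjusted p = 0.427), whereas limma on log2(FPKM + 1) gave -0.63 with an adjusted p of 0.0347. The annotated span of Carm1, introns included, overlaps that of Yipf2 on the opposite strand by 3942 bases, and Yipf2 averaged 5.64 FPKM. Whether their exons share bases was not examined. With no strand in the counting stated, reads of any shared exon bases could not be assigned with certainty. Prmt6, a nuclear type I enzyme, had 0 to 6.90 counts in GV and 1 to 8.58 counts in MII oocytes. Without the filter on low counts its log2 fold change was 0.57 ± 1.03 (SE, edgeR adjusted p = 0.716), so a stage difference was not detectable at this depth.

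**Figure D3:**
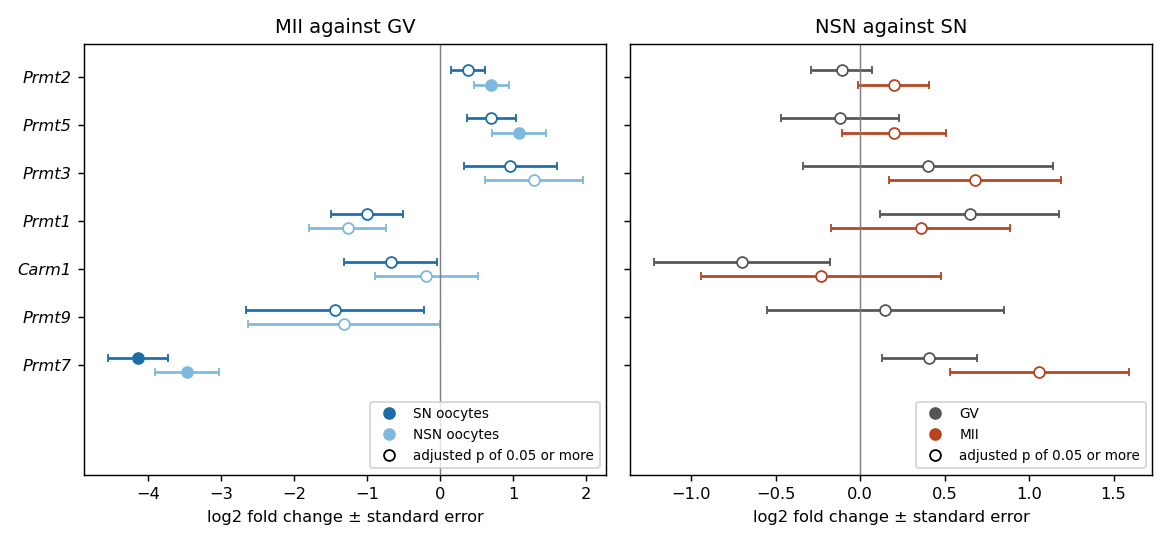
Log2 fold changes (x axes) with standard errors (bars) of the tested members (y axis), for MII against GV oocytes within the SN and NSN types (left) and for NSN against SN oocytes within each stage (right). Filled points have an edgeR adjusted p under 0.05; Prmt7 lay at -4.14 in SN and -3.47 in NSN oocytes by stage, and no point on the right is filled.

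Prmt5 encodes the main type II enzyme, which works as an octamer with the WD-repeat protein encoded by Wdr77. Prmt5 had 16.4, 31.8 and 17.2 CPM in SN GV, 23.0, 15.1 and 20.6 CPM in NSN GV, 32.6, 40.9, 29.4 and 39.1 CPM in SN-MII, and 26.1, 30.8 and 67.3 CPM in NSN-MII oocytes. The second SN GV oocyte reached the MII range, and the highest value was that of the third NSN-MII oocyte, the library that stood apart. The rise was 1.85-fold (log2 fold change 0.89 ± 0.25 SE, edgeR adjusted p = 0.00493), and 0.60 to 1.08 on the log2 scale without single libraries, each past the threshold.
Wdr77 was close to the detection limit, with 6.02, 3 and 3.62 counts in SN GV, 12.0, 11.3 and 6 counts in NSN GV, 2.14, 5, 2 and 6 counts in SN-MII, and 2, 1.77 and 0 counts in NSN-MII oocytes. The first and second NSN GV oocytes were the highest, and the GV and MII counts overlapped. Without the filter its log2 fold change over all oocytes was -1.36 ± 0.92 (SE, edgeR adjusted p = 0.216). Thus a stage difference of Wdr77 was not detectable at this depth, and its mean level was 0.593 FPKM in GV against 7.67 FPKM for Prmt5. The annotated span of Atp5f1, at a mean of 55.7 FPKM, overlaps that of Wdr77 on the opposite strand by 731 bases, introns included. Whether their exons share bases was not examined, and the origin of the few Wdr77 reads was not tested.
Prmt9, the other type II enzyme, which methylates the splicing factor SF3B2, had 3.95, 0.945 and 1.79 CPM in SN GV and 2.73, 3.12 and 1.39 CPM in NSN GV oocytes. It had 0.265, 2.95, 0 and 0 CPM in SN-MII and 0.952, 1.85 and 0 CPM in NSN-MII oocytes. The second SN-MII oocyte lay within the GV range, and the other 3 of its group were below it. The first and second NSN-MII oocytes, at 0.952 and 1.85 CPM, also lay within the GV range. The log2 fold change of -1.38 ± 0.90 (SE) did not pass (edgeR adjusted p = 0.178). Without the second SN-MII oocyte it was -2.87 with an edgeR adjusted p of 0.00806. In NSN oocytes alone it was -1.32 (edgeR adjusted p = 0.405).

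**Figure D4:**
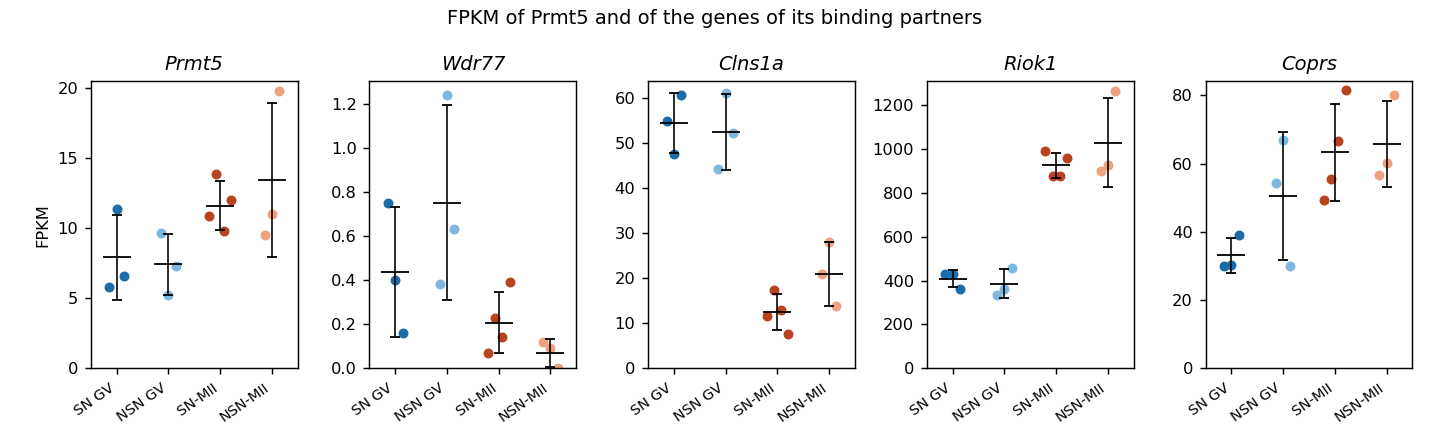
FPKM (y axes, each from 0) of Prmt5 and of the genes of 4 PRMT5 binding partners in each of the 13 oocytes, by group (x axes). Points are single oocytes, dashes are means and bars are 1 SD; Riok1 lay at 333 to 460 FPKM in GV and 876 to 1262 FPKM in MII oocytes, Clns1a at 44.2 to 61.1 and 7.72 to 28.1 FPKM, and Wdr77 at most at 1.24 FPKM.

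Other proteins steer PRMT5 to its substrates, and their mRNAs moved in different directions. Clns1a encodes the adaptor pICln, which brings Sm proteins to PRMT5, and RIOK1 is an alternative adaptor that competes for the same site. Clns1a fell from 76.4 ± 12.5 CPM (SD, n = 6) to 24.9 ± 9.07 CPM (SD, n = 7), with no overlap (log2 fold change -1.61 ± 0.20 SE, edgeR adjusted p = 1.82e-06). Riok1 rose from 573 ± 98.9 to 1537 ± 329 CPM, with no overlap (log2 fold change 1.43 ± 0.17 SE, edgeR adjusted p = 9.73e-07). The 2 adaptors thus moved in opposite directions under all scalings tried. Coprs, which encodes a histone-binding PRMT5 cofactor, rose from 26.6 ± 10 to 46.5 ± 12 CPM (edgeR adjusted p = 0.00324), and its stages overlapped. Within types Coprs was at 1.12 in SN (edgeR adjusted p = 0.00593) and 0.56 in NSN oocytes (0.152). Of the 5 binding partners, which also include the PRMT1 partners Btg1 and Btg2, 3 rose, 1 fell and 1 did not pass, with a median log2 fold change of 0.80 against -0.10 over all genes.

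**Figure D5:**
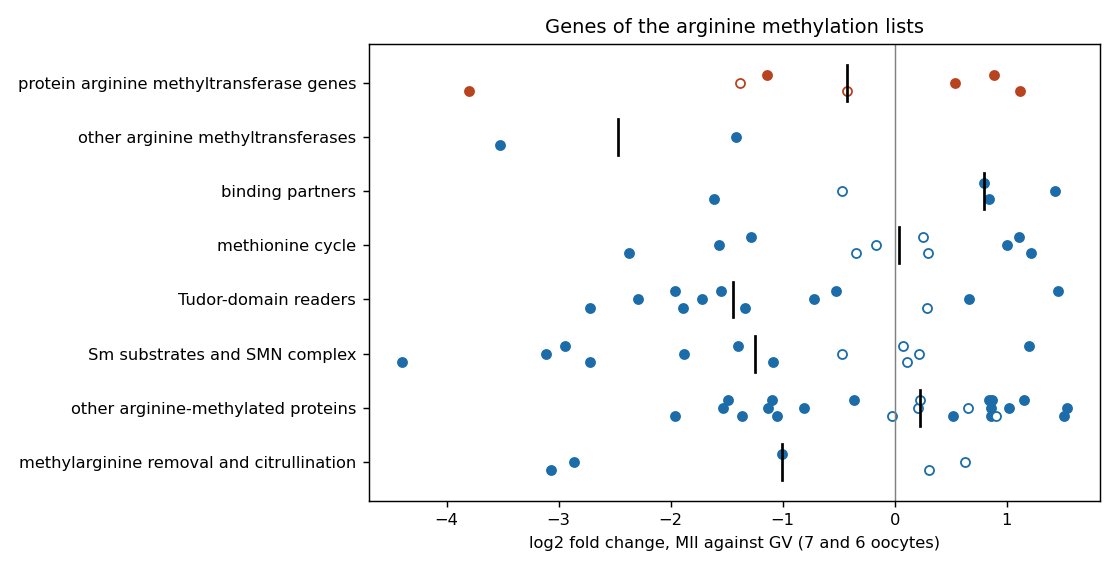
Log2 fold changes between 7 MII and 6 GV oocytes (x axis) of the tested genes of each list (y axis). Filled points have an edgeR adjusted p under 0.05 and the black line is the list's median, which was -0.43 for the arginine methyltransferase genes, -1.44 for the Tudor-domain readers and 0.80 for the binding partners.

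Genes around the methylation reaction were counted in the same fit, by lists drawn up from general knowledge. Over 75 such genes in 7 lists, 69 were tested, 18 rose, 34 fell and 17 did not pass, with a median log2 fold change of -0.47 against -0.10 over all genes. That is 52 called of 69, against 68.5% of all genes tested.
For other enzymes with arginine methyltransferase activity, both tested genes fell and Prmt8, the brain enzyme, was at 0 in every library. Mettl23 fell from 23.2 ± 8.06 to 2.02 ± 1.29 CPM (log2 fold change -3.52 ± 0.40 SE, edgeR adjusted p = 7.42e-07), and Ndufaf7, which methylates a complex I subunit, fell 2.68-fold. METTL23 has been described as a histone H3 arginine methyltransferase of the oocyte.
In the methionine cycle, which makes S-adenosylmethionine and clears its product, 3 of 10 tested genes rose, 3 fell and 4 did not pass. Mtr, methionine synthase, rose from 32.3 ± 12.6 to 75.3 ± 10.4 CPM, and Mat2b, the regulatory subunit of S-adenosylmethionine synthetase, rose 2.16-fold. Ahcy, which hydrolyses the inhibitory product S-adenosylhomocysteine, fell from 34.4 ± 6.70 to 6.59 ± 2.53 CPM without overlap (edgeR adjusted p = 1.79e-06). The third gene that rose was Mat2a.

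Among proteins that bind methylarginine through Tudor domains, 9 of 12 genes fell, 2 rose and 1 did not pass, with a median log2 fold change of -1.44 against -0.10 over all genes, of which 36.8% fell. Tdrd7 and Tdrd5, both of germ granules, fell by 2.72 and 2.29 on the log2 scale (edgeR adjusted p = 0.00569 and 1.35e-06). Tdrd7 had only 0 to 25 counts in MII oocytes and its stages overlapped. Within types Tdrd7 was at -2.2 in SN (edgeR adjusted p = 0.0798) and -3.25 in NSN oocytes (0.029). The 2 that rose, Smn1 (1.46) and Smndc1 (0.66), bind symmetrically methylated Sm tails and belong to spliceosome assembly. Tdrd3 (-1.89) and Snd1 (-1.34) fell without overlap, and the gene that did not pass was Tdrd6 (0.29, edgeR adjusted p = 0.658). Smndc1 did not pass with library totals (0.34, edgeR adjusted p = 0.0889).
Among Sm substrates of PRMT5 and the SMN complex, 7 of 12 genes fell, 1 rose and 4 did not pass, with a median of -1.25. Gemin7 fell from 155 ± 24.1 to 7.32 ± 2.70 CPM (log2 fold change -4.40 ± 0.25 SE, edgeR adjusted p = 2.65e-10), and Gemin2 fell 8.65-fold (edgeR adjusted p = 0.00037). Gemin2 had only 0 to 17 counts in MII oocytes and its stages overlapped. Within types Gemin2 was at -4.25 in SN (edgeR adjusted p = 0.00105) and -1.97 in NSN oocytes (0.057). Snrpd3, a methylated Sm protein, rose from 35 ± 8.16 to 80.0 ± 16.6 CPM. Thus genes of the same assembly pathway moved in both directions.
Of 23 genes for other arginine-methylated proteins, 9 rose, 9 fell and 5 did not pass, with a median of 0.23. Trp53bp1 rose 2.90-fold and Pabpn1 2.85-fold, both without overlap between the stages. Alyref (-1.96, edgeR adjusted p = 0.0426) fell from a mean of 1.42 CPM. By type Alyref was at -3.57 in SN (edgeR adjusted p = 0.0173) and -0.35 in NSN oocytes (0.81), an interaction that did not pass (edgeR adjusted p = 0.974). The Alyref call was lost in 9 of 13 fits without 1 library, at -2.34 to -1.51. Fbl, whose coding sequence was in the injected mRNA, had 12.4 to 176 CPM in GV and 5.32 to 89.2 CPM in MII oocytes (-1.49, edgeR adjusted p = 0.0123). Within types Fbl was at -0.25 in SN (edgeR adjusted p = 0.765) and -2.73 in NSN oocytes (0.00527), and the interaction of type and stage was -2.49 (edgeR adjusted p = 0.823). Its reads can come from the injected mRNA, and without the second SN GV oocyte its fall did not pass (-1.06, edgeR adjusted p = 0.0604).
Of 5 tested genes of citrullination and methylarginine removal, 3 fell and 2 did not pass. Padi6, a maternal-effect gene of the oocyte lattices, fell from 4630 ± 698 to 643 ± 109 CPM (edgeR adjusted p = 6.34e-11). Padi1 fell from 1.48 ± 0.974 to 0.141 ± 0.248 CPM (edgeR adjusted p = 0.00802), at low levels whose stages overlapped. Within types Padi1 was at -2.92 in SN (edgeR adjusted p = 0.0696) and -3.23 in NSN oocytes (0.0489).

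The stage comparison was next made within each oocyte type. In SN oocytes 1 of 7 tested members, Prmt7, was called, against 56.3% of all genes tested, and in NSN oocytes 3 of 7 were called, against 56.1%. Prmt7 fell 17.6-fold in SN oocytes (log2 fold change -4.14 ± 0.41 SE, edgeR adjusted p = 3.64e-07) and 11.1-fold in NSN oocytes (-3.47 ± 0.44, edgeR adjusted p = 6.73e-06). In NSN oocytes Prmt5 (1.08 ± 0.37, edgeR adjusted p = 0.0197) and Prmt2 (0.70 ± 0.24, edgeR adjusted p = 0.0221) rose, both without overlap. With library totals in place of TMM neither passed in NSN oocytes (0.71 and 0.40). In limma on log2(FPKM + 1) Prmt5 did not pass either (0.75, limma adjusted p = 0.0539), nor with a pseudocount of 0.1 (0.82, 0.0579). In SN oocytes they had log2 fold changes of 0.70 ± 0.34 (edgeR adjusted p = 0.0936) and 0.38 ± 0.23 (edgeR adjusted p = 0.174). The members that were called in one type and not the other had the same sign in both.
Without the third NSN-MII library, Prmt7 was the only member called in NSN oocytes, and Prmt5 was at 0.51 (edgeR adjusted p = 0.207) and Prmt2 at 0.54 (edgeR adjusted p = 0.073). The Prmt2 call was also lost without the second NSN-MII oocyte (edgeR adjusted p = 0.0627) or the first NSN GV oocyte (0.0962), and the Prmt5 call without the second NSN GV oocyte (0.0686). Prmt1 in NSN oocytes was at -1.27 ± 0.53 (edgeR adjusted p = 0.0503), and passed with DESeq2 (-1.32, DESeq2 adjusted p = 0.0277), without the third NSN GV oocyte (-1.64, edgeR adjusted p = 0.0141) or the first NSN-MII oocyte (-1.56, 0.0472). Prmt3 passed in NSN oocytes without the first NSN GV oocyte (2.18, edgeR adjusted p = 0.024). In SN oocytes a second member passed without the second SN GV oocyte (Prmt5, 1.08, edgeR adjusted p = 0.0288), the third SN GV oocyte (Prmt3, 1.86, 0.0447) or the second SN-MII oocyte (Prmt9, -4.42, 0.0123). The libraries of the stages did not overlap for 2 of 7 members in SN oocytes and 3 of 7 in NSN oocytes, against 63.4% and 60.9% of all genes tested. For all genes in SN oocytes, 2855 rose and 3548 fell with TMM, and 1992 rose and 3979 fell with library totals.

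NSN and SN oocytes were then compared within each stage. At the GV stage none of the 7 tested members was called, against 0.0% of the 10839 genes tested, and none had an unadjusted p under 0.05, as 183 genes did over the whole table. No member was called by DESeq2 or by limma either. Log2 fold changes of NSN against SN GV oocytes lay between -0.70 ± 0.52 (SE) for Carm1 and 0.65 ± 0.53 for Prmt1, and the libraries overlapped for every member, as for all but 6.04% of genes tested. Prmt7 averaged 75.2 ± 16.3 CPM (SD, n = 3) in SN GV and 98.5 ± 25.2 CPM (SD, n = 3) in NSN GV oocytes, a log2 fold change of 0.41 ± 0.28. For Prmt2, the best-counted member, the difference was -0.11 ± 0.18.

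At MII none of the 6 tested members was called, against 0.279% of the 10028 genes tested, and none had an unadjusted p under 0.05, as 942 genes did over the whole table. DESeq2 and limma called none as well. Prmt9 did not pass the filter in this fit. The libraries of the types overlapped for all 6, while 10.2% of all genes tested were apart. Prmt7 averaged 4.26 ± 1.37 CPM (SD, n = 4) in SN-MII and 8.76 ± 5.11 CPM (SD, n = 3) in NSN-MII oocytes, and the third NSN-MII oocyte, at 2.87 CPM, lay within the SN-MII range. The log2 fold change was 1.06 ± 0.53 (SE, edgeR adjusted p = 0.572), and 1.47 with an edgeR adjusted p of 0.0886 without the third NSN-MII library. Prmt3 was at 0.68 ± 0.51, and the other members lay between -0.23 and 0.36 on the log2 scale.
The test of the difference itself, the interaction of type and stage, called none of the 7 members, against 0.0176% of all genes, and none had an unadjusted p under 0.05. For Prmt7 the interaction was 0.67 ± 0.56 (SE, edgeR adjusted p = 1), so the fall of Prmt7 was not shown to differ between the types. The spread between oocytes, the few oocytes per group and the 17 to 97 counts of Prmt7 in MII oocytes limit how small a difference could be seen.

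No gene of the 7 lists was called by type at either stage. At MII the counts depended on the fit. DESeq2 called Gemin8 (log2 fold change -1.50, DESeq2 adjusted p = 0.00147), Ncl (0.60, 0.0104) and Ddx4 (1.18, 0.00657), and the fit of all 13 libraries together called Gemin8 (edgeR adjusted p = 0.0261). Without the third NSN-MII library, Mat2b (-0.55), Ddx20 (2.22), Ncl (0.69), Cirbp (-0.96) and Ddx4 (1.41) passed, with edgeR adjusted p-values between 0.0117 and 0.0374. These genes are named because they were called under those settings, after their values were seen.

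To show which gene was most like each member over the 13 oocytes, Pearson's r of log2(CPM + 1) was computed against all genes tested by stage. Prmt7 was closest to Mgmt, a DNA alkyltransferase gene, with r = 0.991, Prmt2 to Zdhhc6 with r = 0.955, and Prmt1 to Aunip with r = 0.934. Prmt5 was closest to Afap1 (r = 0.926) and Prmt3 to Pcmtd1 (r = 0.924), while the low genes Prmt9 and Carm1 reached r = 0.872 with Arhgap24 and r = 0.805 with Adam7. Mgmt fell 17.5-fold from GV to MII oocytes. The points of each correlation share the 2 stages and their libraries, so these values describe these 13 oocytes.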

How the data were processed

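Single oocytes were sequenced by SMART-seq2 with Nextera libraries on HiSeq X-10. Per the labels, reads were trimmed with Trim Galore 0.4.4, aligned to mm10 with Bowtie2 2.3.5 and quantified with RSEM 1.2.28; DESeq2 1.20.0 is also named. The authors deposited expected counts, not normalised, in 1 table per stage, and FPKM values in 1 table of all libraries. RSEM shares out reads among genes and transcripts, and whether strand was used is not given in the sources used here.

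Counts were rounded, filtered with filterByExpr, scaled by TMM and tested with edgeR 4.0.16 (R 4.3.3; robust quasi-likelihood fit), with Benjamini-Hochberg adjustment over all genes and a threshold of 0.05. Stage comparisons and the interaction used all 13 libraries, and type comparisons those of 1 stage. DESeq2 1.42.0 and limma 3.58.1 on log2(FPKM + 1), keeping genes at a mean of 1 FPKM or more, were alternatives, with a minimum change of 1.5-fold, other scalings and omission of single libraries. SDs are over oocytes, whose biological coefficient of variation was 0.364, above the counting error of most genes. The scripts were tested on simulated data. Exact tests used scipy in Python. Pairs of libraries were checked for copies and all differed. Groups came from the sample titles.

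The members and lists were chosen with earlier results of these data known. Genes named beside the members were, for each list, up to 2 that rose and up to 2 that fell most, genes called by type or interaction, Fbl, and the gene closest to each member; others were named after their values were seen. Some genes that the rule names are not reported here. Protein sequences were not analysed here. Coordinates and 3′ ends are from GENCODE M21.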

Additional observations from a re-analysis of the deposited data

Results flagged for a closer look

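By Dixon's ratio (the gap to the nearest library over the range), 2 of 27 sets of 4 to 7 libraries had an extreme member; chance alone gives about 1 in 20. Prmt9 in the SN-MII oocytes had a ratio of 0.91, from the second oocyte at 2.95 CPM against 0 to 0.265 CPM in the other 3. Prmt5 in the MII oocytes had a ratio of 0.639, from the third NSN-MII oocyte at 67.3 CPM against 26.1 to 40.9 CPM in the other 6.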

How the results depend on the processing

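Over all oocytes, 5 members were called by stage, 3 with library totals in place of TMM and 4 or 5 without single libraries. With a minimum change of 1.5-fold 4 were called, since Prmt2 changed 1.45-fold. In SN oocytes 1 was called, 2 with library totals, where Prmt1 (-1.32) passed as well, and 1 or 2 without single libraries, and in NSN oocytes 3 were called and 1 to 4 without single libraries. By type, 0 list genes were called at MII, 3 by DESeq2, 1 in the fit of all libraries and 0 to 5 without single libraries. The fall of Prmt7 kept its direction and call under every alternative run. Directions that turned belonged to members that were not called, when 1 library was left out. At GV these were Prmt2 (-0.19 to 0.01), Prmt3 (-0.60 to 1.34), Prmt5 (-0.32 to 0.22) and Prmt9 (-0.23 to 0.82), at MII Carm1 (-0.54 to 0.21) and Prmt5 (-0.31 to 0.44), and by stage in NSN oocytes Carm1 (-0.48 to 0.26). The cause of these changes was not tested. Other called values that did not pass were Fbl and Alyref without the filter (-1.50 and -1.96). With few counts of Prmt6, Prmt9, Wdr77 and Carm1, depth limits what could be seen.

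With the replicate number of the titles as a block, 4 members were called by stage over all oocytes, with Prmt3 at 0.90 (edgeR adjusted p = 0.127) and Prmt7 at -3.93. Between groups, the deviations of libraries that share a number correlated at -0.459 to 0.202, so a pairing of the oocytes was not shown. With so few libraries per group, these values cannot exclude a pairing. The block changed no other member's call, and among list genes named here it ended that of Alyref (-1.75, edgeR adjusted p = 0.107).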
